A study of Mus musculus with 6 samples.

Results

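The early response genes described here are *Egr1*, *Egr2*, *Egr3*, *Nr4a1*, *Nr4a2*, *Nr4a3*, *Ier2*, *Ier3*, *Ier5* and *Btg2*. They were taken by gene name from an RNA-seq table of sorted hematopoietic stem and progenitor cells, and make up 10 of its 54532 genes. All 10 were found, and none is overlapped by another gene of the GENCODE M21 annotation. The cells were bone marrow LSKs (Lin-Sca1+c-Kit+), with 100000 sorted for each library. The 3 control (CTRL) libraries came from *Myh9*fl/fl;no cre mice and the 3 *Myh9*-deficient (cKO) libraries from littermate *Myh9*fl/fl;*Mx1-cre* mice, all of the C57BL/6 strain and genotyped at 4 to 5 weeks of age. *Myh9* encodes the heavy chain of non-muscle myosin IIA. Both groups carried the floxed alleles and both received poly I:C, an inducer of interferon, at 5 mg/kg, given as 2 doses by the sample descriptions, whereas the study's methods list 1 dose more. LSKs were taken 4 days after the first injection. *Mx1-cre* is driven by an interferon-responsive promoter and is not restricted to blood cells. The comparison addresses which transcripts of LSKs differ after *Myh9* deletion.

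Early response genes are transcribed within minutes of a signal from existing, mostly phosphorylation-controlled transcription factors, without prior protein synthesis, and their transcripts are short-lived. EGR proteins are zinc finger transcription factors, NR4A proteins are nuclear receptors that act without a known natural hormone, IER proteins are small products of immediate early genes, and BTG2 is an antiproliferative protein that recruits the CCR4-NOT complex to shorten mRNA tails. In blood-forming cells, *Egr1* and the *Nr4a* genes have been linked to the quiescence of stem cells, and EGR and NR4A factors also act in the differentiation of myeloid cells.

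Of the 10 genes, 9 were lower in *Myh9*-deficient than in control LSKs, with every cKO library below every control library, and *Ier5* was the exception. The mean level of *Egr3* decreased by 92.2% and that of *Nr4a1* decreased by 73.3%. *Btg2* decreased by 64.4%, *Egr1* decreased by 61.5% and *Egr2* decreased by 50.2%. *Ier2* decreased by 39.8%, *Ier3* decreased by 32.1% and *Nr4a2* decreased by 31.9%. *Nr4a3* had 31 reads over the control and 7 over the cKO libraries, too few to place it in this order. Levels are given in FPKM, the reads of a gene scaled by its length and by the size of its library. A test with limma on log2(FPKM + 1) was made for genes that averaged 1 FPKM or more across the 6 libraries, which 7 of the members did and *Egr2*, *Egr3* and *Nr4a3* did not. Of the 7, 6 were lower in cKO LSKs at an adjusted p under 0.05, none was higher and *Ier5* did not pass. Over all 11552 genes tested, 20.6% were lower and 19.9% were higher by the same rule. All 6 lay below every control library, as did 28.5% of all genes tested. The median log2 fold change of the 7 members was -0.73, against -0.0096 over all genes tested, of which the central 90% ran from -0.44 to 0.48. *Nr4a1*, *Btg2* and *Egr1* were more than 2-fold lower, as were 0.701% of all genes tested. They ranked 13, 28 and 39 from the lowest log2 fold change.

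**Figure D1:**
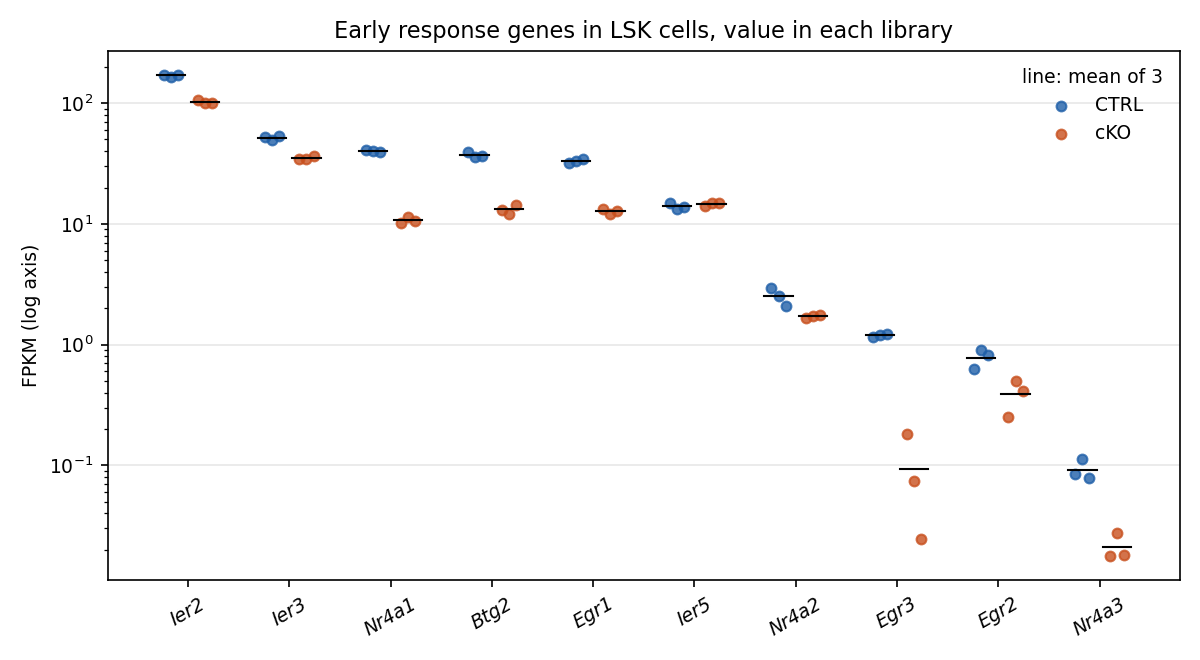
Level of each early response gene in each of the 6 libraries, in FPKM on a log axis, with the genes ordered by their mean in control LSKs. Each point is 1 library (blue, CTRL; orange, cKO) and each black line the mean of 3; *Ier5* is the only gene in which the points of the groups overlap.

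The libraries held 17571544 to 19894562 reads on genes, recovered from the FPKM values as whole multiples of 1 read. Mitochondrial genes took 1.71% to 1.82% of them. Libraries of the same group were correlated at 0.991 to 0.993 and libraries of different groups at 0.974 to 0.977 (Pearson's r over genes tested, on log2(FPKM + 1)). The deleted gene itself, *Myh9*, was at 22.5 ± 0.495 FPKM in control and 18.7 ± 1.18 FPKM in cKO LSKs (mean ± SD, n = 3 libraries each), without overlap (adjusted p = 0.00642). Its transcript, read over the whole gene, thus remained at 0.829 times the control level, a log2 fold change of -0.26 (-0.16 with length trends removed). The study describes loxP sites placed at the first exon of *Myh9* and reports efficient deletion in bone marrow by real-time PCR. The floxed exon was not measured on its own here, so the ratio does not show how complete the deletion was in these LSKs. The names of the groups here follow the genotype labels. *Kit* (23.9 to 21.5 FPKM) and *Ly6a* (95.4 to 89.5 FPKM), which encode the c-Kit and Sca1 antigens of the sort, were present in both groups. The study describes the LSK sets as independent, but the labels do not tie libraries to animals or say how many were pooled, so the p-values measure the spread between these libraries, which may be technical.

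EGR1, EGR2 and EGR3 bind the same GC-rich DNA element and are induced by growth factor, antigen and stress signals. *Egr1* (ENSMUSG00000038418, on chromosome 18) was the most abundant of the family, at 32.2, 32.9 and 34.2 FPKM in the control libraries and 13.3, 12.1 and 12.8 FPKM in the cKO libraries. The groups were far apart beside the small spread within each. The mean fell from 33.1 ± 1.00 to 12.7 ± 0.648 FPKM (log2 fold change -1.31, SE 0.045, 95% interval -1.42 to -1.20, adjusted p = 6.7e-06).

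*Egr3* (ENSMUSG00000033730, GRCm38 chr14:70077203-70082614, plus strand) was near the filter on low values in control LSKs and at a few reads in cKO LSKs. It had 1.16, 1.21 and 1.23 FPKM in the control libraries, from 102, 94 and 104 reads. The cKO libraries had 0.182, 0.0747 and 0.0244 FPKM, from 15, 6 and 2 reads. The control libraries were alike (coefficient of variation 2.81%), while the cKO libraries were spread widely (85.9%) at levels where a few reads decide the value. Reads summed over each group were 300 and 23, a ratio per sequenced read of 12.6 in favour of control (95% interval 8.25 to 20.2, covering counting error only). In the exact permutation test (two-sided) p was 0.1, the smallest that 3 libraries against 3 can give, and the same held for every member other than *Ier5*.

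*Egr2* (ENSMUSG00000037868, chr10:67535475-67542188, plus strand) was also below the filter. It had 0.622, 0.902 and 0.813 FPKM in control libraries, from 42, 54 and 53 reads, and 0.251, 0.500 and 0.411 FPKM in cKO libraries, from 16, 31 and 26 reads. The highest cKO library came close to the lowest control library without reaching it. The ratio of reads, control over cKO, was 1.97 (95% interval 1.48 to 2.65, covering counting error only). *Egr2* and *Egr3* also differed from each other in order: in control LSKs *Egr2* was the lower of the pair, at 0.648 times *Egr3*, and in cKO LSKs it was 4.14 times *Egr3*. The cKO ratio rests on 15, 6 and 2 reads of *Egr3*, so its size is uncertain.

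**Figure D2:**
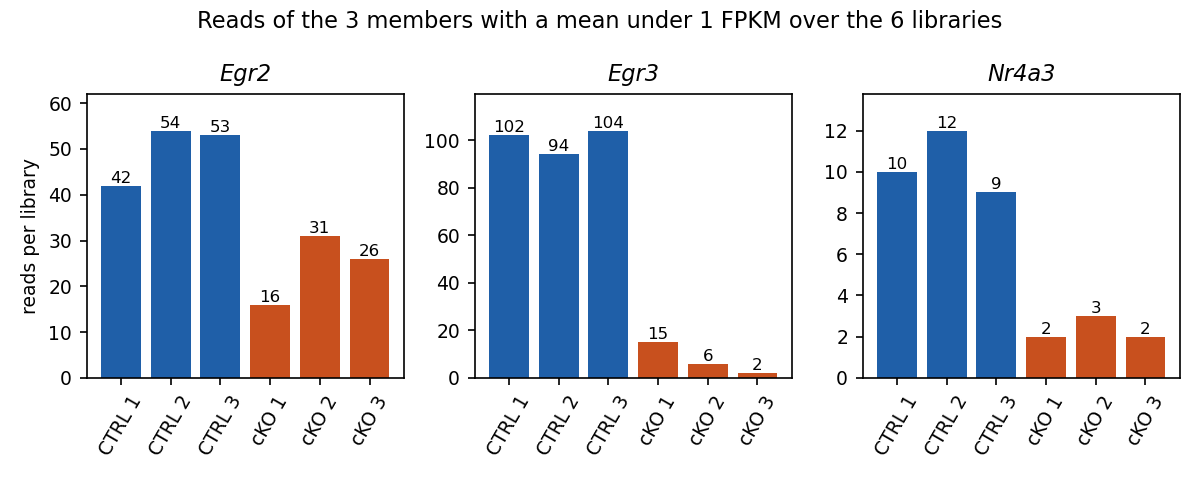
Reads in each library for the 3 genes below the filter on low values, *Egr2*, *Egr3* and *Nr4a3*, with linear axes that start at 0 and differ between panels. Each bar is 1 library (blue, CTRL; orange, cKO) with its number of reads above it; every cKO bar is shorter than every control bar of the same gene, and *Egr3* falls from 94 to 104 reads to 2 to 15.

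When voom was run on the recovered reads of genes with at least 10 reads in all, an alternative chosen after seeing the data, all 10 members could be fitted, and 9 were lower at an adjusted p under 0.05. Over the 18035 genes in that fit, 14.8% were lower by the same rule. The log2 fold change of *Egr3* was -3.94 (95% interval -4.99 to -2.89, limma adjusted p = 1.9e-06) and that of *Egr2* was -1.0 (-1.65 to -0.36, adjusted p = 0.0155). On the log2(FPKM + 1) scale without a filter, which understates changes of low genes, *Egr3* had -1.01 (adjusted p = 6.2e-04) and *Egr2* -0.36 (adjusted p = 0.0605). *Egr2* was thus called by voom and not by limma without a filter. These fits differ in scale, gene set and weighting, and which of these decides the call was not tested.

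The stretch before a start site of *Egr2* is shown because it holds matches to elements known from early response genes. The windows, 250 bases before each RefSeq start site (GRCm38.p6), were searched on both strands for the CArG box bound by SRF, the cAMP response element (CRE, TGACGTCA), its core TGACG, the EGR site (GCGNGGGCG), the NBRE bound by NR4A factors (AAAGGTCA), the AP-1 site (TGANTCA), the GC box (GGGCGG) and the TATA box (TATAAA). A full CRE holds 2 overlapping cores and an EGR site can overlap a GC box. In each sequence printed, capitals mark CRE cores, EGR sites and CArG boxes, and the letters run 5′ to 3′ on the gene's strand. The *Egr2* window lay at chr10:67537619-67537868 (plus strand), within the annotated gene and outside its exons.
*Egr2*: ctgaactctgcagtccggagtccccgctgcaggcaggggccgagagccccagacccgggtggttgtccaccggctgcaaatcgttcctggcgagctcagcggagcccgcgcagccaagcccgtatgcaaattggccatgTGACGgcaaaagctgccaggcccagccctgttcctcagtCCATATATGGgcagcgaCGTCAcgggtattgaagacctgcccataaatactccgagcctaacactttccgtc
It held a CArG box at bases -72 to -63 from the start site and 2 CRE cores, at -111 to -107 and -55 to -51.

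NR4A1 (also called NUR77), NR4A2 (NURR1) and NR4A3 (NOR1) are orphan nuclear receptors whose activity follows their amount. *Nr4a1* (ENSMUSG00000023034, chr15:101254269-101274795, plus strand) had 40.6, 40.4 and 39.6 FPKM in the control libraries and 10.1, 11.5 and 10.6 FPKM in the cKO libraries. The 3 control libraries were nearly identical, and the gap between the groups was many times the spread within either. The mean fell from 40.2 ± 0.529 to 10.7 ± 0.681 FPKM, a ratio of 3.74 and a log2 fold change of -1.81 (SE 0.047, 95% interval -1.92 to -1.70, adjusted p = 3.5e-06). This was the lowest log2 fold change among the 7 members tested.

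*Nr4a2* (ENSMUSG00000026826, chr2:57106830-57124003, minus strand) had 2.92, 2.53 and 2.11 FPKM in the control libraries and 1.64, 1.73 and 1.77 FPKM in the cKO libraries. The control libraries were spread more widely than the cKO libraries, and the lowest of them stood a little above the highest cKO library. The log2 fold change was -0.37 (SE 0.095, 95% interval -0.59 to -0.14, adjusted p = 0.0213). The call was lost without control replicate 1 (adjusted p = 0.0567), control replicate 2 (0.0620), cKO replicate 1 (0.0634) or cKO replicate 2 (0.0503), and with no filter on low values (0.0624) or no moderation of the variance (0.0603).

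*Nr4a3* (ENSMUSG00000028341, chr4:48045153-48086447, plus strand) was the least abundant member, with 0.0840, 0.114 and 0.0783 FPKM in control libraries and 0.0178, 0.0275 and 0.0180 FPKM in cKO libraries. These values came from 10, 12 and 9 reads and from 2, 3 and 2 reads, so cKO LSKs were at or under 3 reads in each library, taken as the detection floor. The ratio of summed reads was 4.28 with an interval of 1.85 to 11.5. By voom the log2 fold change was -1.89 (95% interval -3.33 to -0.44, adjusted p = 0.0409), and by limma without a filter it was -0.097 (adjusted p = 0.0344).

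Windows before the start sites of *Nr4a1* and *Nr4a2* are shown because these genes, both held CRE cores and an EGR site. The first, at chr15:101266596-101266845 (plus strand), lies within the annotated *Nr4a1* gene and outside its exons, and the second, at chr2:57124004-57124253 (minus strand), lies before the annotated *Nr4a2* gene.
*Nr4a1*: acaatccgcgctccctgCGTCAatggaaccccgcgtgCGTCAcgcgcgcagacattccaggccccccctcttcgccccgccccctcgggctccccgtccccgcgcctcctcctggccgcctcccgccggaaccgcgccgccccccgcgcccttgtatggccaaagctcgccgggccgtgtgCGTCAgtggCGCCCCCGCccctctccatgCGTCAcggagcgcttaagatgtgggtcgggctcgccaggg
*Nr4a2*: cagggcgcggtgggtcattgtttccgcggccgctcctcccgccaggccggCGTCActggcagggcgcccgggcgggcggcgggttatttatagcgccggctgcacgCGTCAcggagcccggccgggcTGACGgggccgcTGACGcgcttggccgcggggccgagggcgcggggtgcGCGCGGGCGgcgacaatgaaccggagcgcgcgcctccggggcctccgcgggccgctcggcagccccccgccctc
Each held 4 CRE cores and 1 EGR site, which stood at -60 to -52 in *Nr4a1* and at -74 to -66 in *Nr4a2*. *Nr4a3* also held 4 CRE cores and no EGR site.

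*Ier2* (ENSMUSG00000053560, chr8:84661331-84662852, minus strand) encodes a nuclear protein of growth factor responses and was the most abundant member. It had 171, 166 and 172 FPKM in the control libraries and 105, 99.8 and 101 FPKM in the cKO libraries. Its groups were separated by a wide gap. The mean fell from 169.6 ± 3.03 to 102.0 ± 2.94 FPKM (log2 fold change -0.73, SE 0.030, 95% interval -0.80 to -0.66, adjusted p = 1.3e-05).

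*Ier3* (ENSMUSG00000003541, chr17:35821684-35822923, plus strand), also known as IEX-1, encodes a regulator of survival and ERK signalling. It had 52.7, 49.2 and 53.8 FPKM in the control libraries and 34.7, 34.2 and 36.8 FPKM in the cKO libraries. Again no cKO library reached a control library. The mean fell from 51.9 ± 2.40 to 35.2 ± 1.35 FPKM (log2 fold change -0.54, SE 0.045, 95% interval -0.65 to -0.44, adjusted p = 2.2e-04).

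*Ier5* (ENSMUSG00000056708, chr1:155096361-155099636, minus strand) encodes a partner of the heat shock factor HSF1 and was the member whose groups overlapped. It had 14.8, 13.3 and 13.7 FPKM in the control libraries and 13.95, 15.0 and 14.9 FPKM in the cKO libraries. Control replicate 1 stood among the cKO libraries. The log2 fold change was 0.063 (SE 0.051, adjusted p = 0.365; exact permutation p = 0.2), and its 95% interval of -0.06 to 0.19 lay above the intervals of the 6 members that passed. Its window, at chr1:155099637-155099886 (minus strand), directly before the annotated gene, is shown for comparison with the other members.
*Ier5*: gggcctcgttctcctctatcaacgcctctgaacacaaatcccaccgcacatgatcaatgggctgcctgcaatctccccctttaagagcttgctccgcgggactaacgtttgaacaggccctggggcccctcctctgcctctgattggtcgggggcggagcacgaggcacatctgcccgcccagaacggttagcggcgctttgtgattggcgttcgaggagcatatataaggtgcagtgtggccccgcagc
It held no CRE core, EGR site or CArG box.

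*Btg2* (ENSMUSG00000020423, chr1:134075170-134079120, minus strand) is both an immediate early gene and a target of p53. It had 39.3, 35.5 and 36.5 FPKM in the control libraries and 13.1, 12.1 and 14.4 FPKM in the cKO libraries. The groups did not overlap. The mean fell from 37.1 ± 2.0 to 13.2 ± 1.13 FPKM (log2 fold change -1.43, SE 0.066, 95% interval -1.59 to -1.27, adjusted p = 2.4e-05). Its window, at chr1:134079156-134079405 (minus strand) before the annotated gene, is shown because it alone among the members with a window held a full CRE.
*Btg2*: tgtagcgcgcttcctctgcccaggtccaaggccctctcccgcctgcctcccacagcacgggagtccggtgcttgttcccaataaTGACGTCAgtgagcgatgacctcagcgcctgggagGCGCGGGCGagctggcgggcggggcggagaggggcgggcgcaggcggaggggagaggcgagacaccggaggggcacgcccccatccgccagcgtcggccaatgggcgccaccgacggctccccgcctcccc
The CRE stood at -166 to -159 and an EGR site at -131 to -123.

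**Figure D3:**
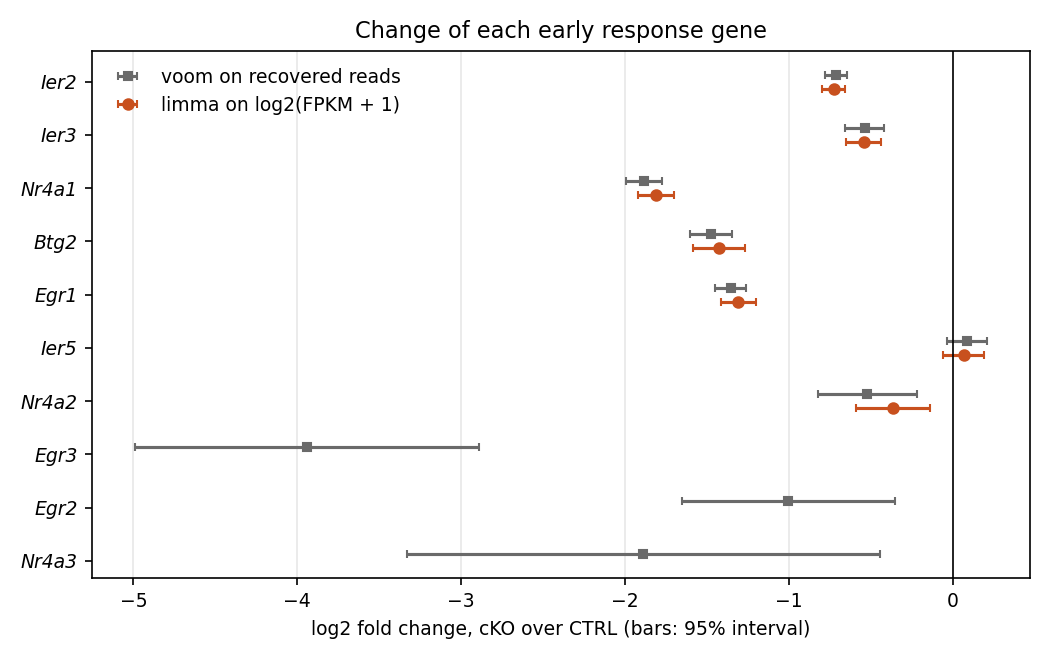
Log2 fold change (cKO over CTRL) of each early response gene by limma on log2(FPKM + 1) for the 7 genes tested (orange circles) and by voom on recovered reads for all 10 (grey squares), with 95% intervals as bars. *Ier5* is the only gene whose intervals include 0, and the intervals of *Egr3* and *Nr4a3* are the widest.

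RefSeq windows were matched for 7 of the 10 members, with 11 start sites among them, of 32851 windows in all. No window was matched for *Egr1*, *Egr3* and *Ier2*, so these genes were not searched for motifs. Of the 11, 5 belong to *Egr2* and several of these overlap. CRE cores were in 7 of the 11 windows (*Btg2*, *Egr2*, *Nr4a1*, *Nr4a2* and *Nr4a3*) and in 17.8% of all windows. EGR sites were in 3 of 11 (*Btg2*, *Nr4a1* and *Nr4a2*) and in 4.70% of all windows. A CArG box was in 4 of 11, each of them from *Egr2*, and in 1.47% of all windows. A full CRE was in 1 window, of *Btg2*, and in 1.55% of all. The letters TATAAA were in 1 window, of *Nr4a2*, and in 12.4% of all. They stood at -164 to -159 on the strand opposite to the gene, and other forms of a TATA box were not searched. GC boxes were in 8 of 11 windows and in 32.7% of all. NBRE and AP-1 letters, in 1.34% and 6.75% of all windows, were in none of the members' windows. These are matches of letters and no binding was measured.

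**Figure D4:**
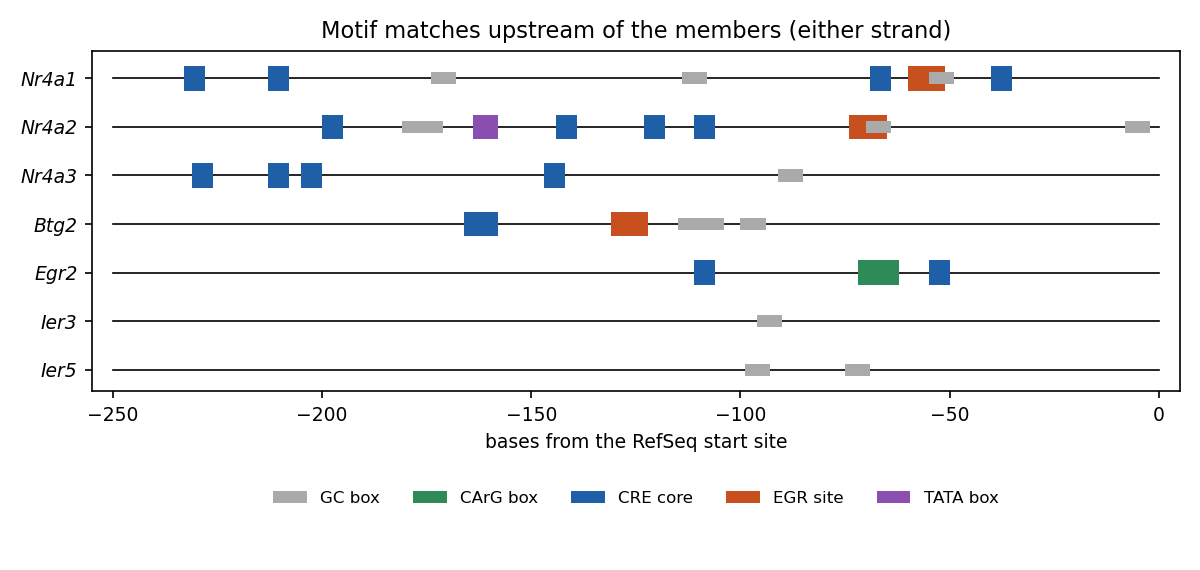
Positions of motif matches in the 250 bases before 1 RefSeq start site of each matched gene (x axis, bases from the start site; both strands). Coloured blocks are the matches named in the legend, with TATAAA as the only form of TATA box searched. *Nr4a1*, *Nr4a2* and *Nr4a3* hold 4 CRE cores each, while *Ier3* and *Ier5* hold only GC boxes among the motifs searched.

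The order of the members changed between the groups. In control LSKs the order from the highest level was *Ier2*, *Ier3*, *Nr4a1*, *Btg2*, *Egr1*, *Ier5*, *Nr4a2*, *Egr3*, *Egr2* and *Nr4a3*, and no neighbours in this order overlapped. In cKO LSKs *Ier5* stood directly after *Ier2* and *Ier3*, above *Btg2*, *Egr1* and *Nr4a1*, although the libraries of *Ier5* and *Btg2* overlapped, as did those of *Btg2* and *Egr1* and those of *Egr3* and *Nr4a3*. *Nr4a1* thus went from above *Btg2* and *Egr1* in control LSKs to below both. The 10 genes summed to 342 to 355 FPKM in control libraries and to 187 to 193 FPKM in cKO libraries, and *Ier2* made up 48.1% to 48.6% and 52.4% to 54.7% of the sum.

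Ratios within the families are given as values, since 3 libraries against 3 cannot give a p under 0.1. The mean level of *Nr4a1* was 16.0 times that of *Nr4a2* in control and 6.26 times in cKO LSKs. Their difference on the log2(FPKM + 1) scale was lower by 1.44 units in cKO LSKs, with no overlap between libraries (exact permutation p = 0.1, and 0.1 adjusted over the 6 pairs compared within families). *Egr1* was 27.5 times *Egr3* in control and 136 times in cKO LSKs, and 42.5 and 32.9 times *Egr2*, as ratios of group means. The 136 rests on 15, 6 and 2 reads of *Egr3* in the cKO libraries. On the log2(FPKM + 1) scale the difference of *Egr1* and *Egr2* changed by -0.95 (exact permutation p = 0.1, and 0.1 adjusted over the 6 pairs). With a pseudocount of 0.1 it changed by -0.50 (exact permutation p adjusted over the 6 pairs, 0.36). On the log2(FPKM + 1) scale the difference of *Egr1* and *Egr3* had the opposite sign, at -0.30, and became 1.46 with a pseudocount of 0.1. The 3 genes at the lowest levels are compressed by the pseudocount.

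No library led the others of its group over the 10 members. The highest of the 3 control values came from replicate 1, 2 and 3 for 4, 2 and 4 genes, and the highest cKO value for 3, 4 and 3 genes. Replicate 1 of the cKO group was the lowest for 5 genes and replicate 3 for 1 gene.

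Other early response genes were also mostly lower. The 49 genes of this list were written down with earlier results of these data known, and 44 of them were tested. Of these, 35 were lower, 2 were higher and 7 did not pass, with a median log2 fold change of -0.72, and 10 were more than 2-fold lower. The shares over all genes tested were 20.6% lower, 19.9% higher and 0.701% more than 2-fold lower. *Atf3*, a stress-induced bZIP factor, fell from 14.1 to 1.93 FPKM (log2 fold change -2.37), *Trib1*, a pseudokinase that guides C/EBP degradation, from 3.35 to 0.725 FPKM (-1.33), and *Jun*, a subunit of AP-1, from 171 to 70.6 FPKM (-1.27). *Id2*, an inhibitor of basic helix-loop-helix factors, rose from 3.27 to 9.17 FPKM (1.26), and the clock gene *Per1* rose with a log2 fold change of 0.53.

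Relatives of the members and proteins that work with theirs were mixed. Of 15 genes 13 were tested, 4 were lower, 1 was higher and 8 did not pass, with a median log2 fold change of -0.069. Beside them, 20.6% of all genes tested were lower and 19.9% were higher. The count of 4 became 2 without control replicate 1, 2 or 3, or without cKO replicate 1 or 3. *Btg1*, the closest relative of *Btg2*, fell from 17.98 to 12.7 FPKM (-0.47 as log2 fold change, adjusted p = 7.5e-04). *Ier5l* had -0.33 (adjusted p = 0.0417) and *Tob2*, another gene of the BTG family, -0.19 (adjusted p = 0.00971). *Prmt1*, an arginine methyltransferase that binds BTG proteins, rose from 107 to 137 FPKM (0.36).

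The signalling route from RAS and ERK to SRF and CREB, which drives many early response genes, had smaller fold changes in its transcripts. Of 25 genes 23 were tested, 8 were lower, 1 was higher and 14 did not pass, with a median of -0.075. By comparison, 20.6% of all genes tested were lower and 19.9% were higher. The count of 1 higher became 2 without cKO replicate 2, and 4 by voom or with length trends, or GC and length trends, removed. With length trends removed 6 were lower and the median was -0.00096. *Elk3*, a ternary complex factor that binds with SRF, had -0.40, and the kinases *Rps6ka5* (MSK1) and *Rps6ka1* (RSK1) had -0.36 and -0.32. *Hras* was higher by 0.27 (adjusted p = 0.0389), a call that was lost without control replicate 1 or 3 or cKO replicate 1 or 3, and with no filter, quantile normalization, no moderation, no trend or a replicate block. Transcript levels do not measure the activity of these kinases.

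Since *Btg2* is a target of p53, a list of 18 p53 targets was read beside it, of which 12 were tested. Among these 3 were lower, 4 were higher and 5 did not pass, with a median of 0.087, beside 20.6% lower and 19.9% higher over all genes tested. *Pmaip1* (NOXA), *Cdkn1a* (p21) and *Bbc3* (PUMA) fell, with log2 fold changes of -0.76, -0.55 and -0.27. *Phlda3*, an inhibitor of AKT, *Bax*, a pore former of mitochondria, and *Aen*, an apoptotic nuclease, rose, with 0.94, 0.42 and 0.41. *Btg2* thus changed in the direction of *Pmaip1*, *Cdkn1a* and *Bbc3* and against that of *Phlda3*, *Bax* and *Aen*.

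**Figure D5:**
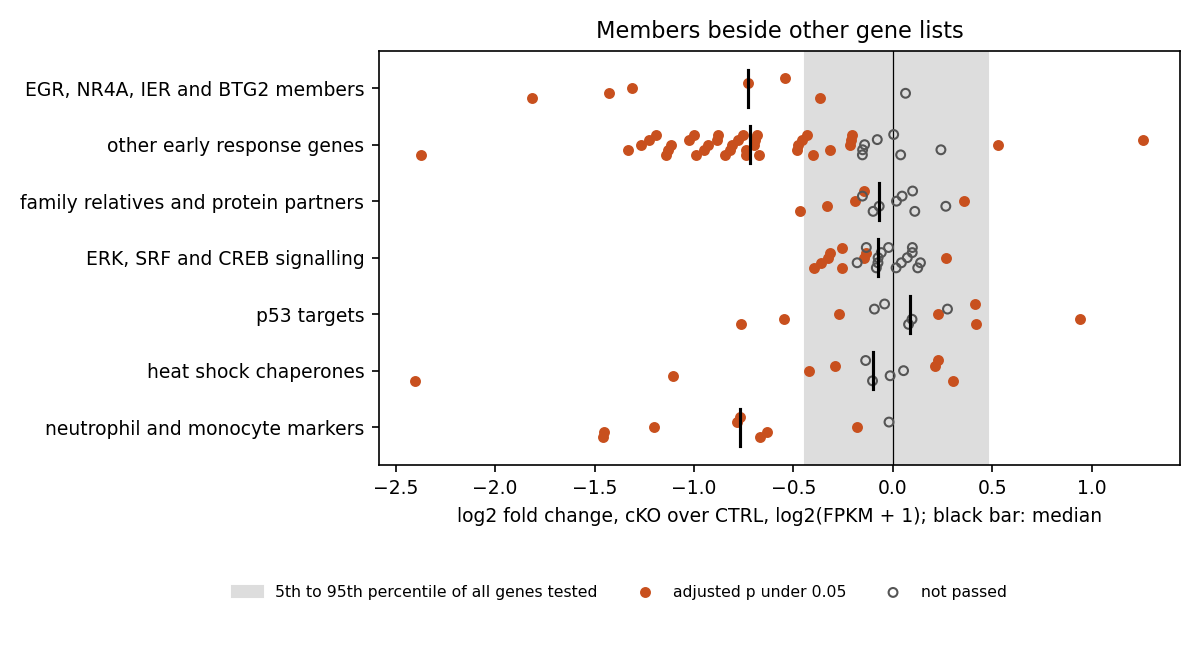
Log2 fold changes (cKO over CTRL, log2(FPKM + 1), x axis) of the tested members and of the tested genes of 6 other lists, each point being 1 gene (filled, adjusted p under 0.05; open, not passed), with list medians as black bars and the grey band covering the central 90% of all genes tested. The members (median -0.73), the other early response genes (-0.72) and the neutrophil and monocyte markers (-0.77) have medians outside the grey band, and the other 4 lists have theirs inside it.

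Markers of several cell types also differed between the groups, some lower and some higher in cKO LSKs. Among all genes tested, 20.6% were lower and 19.9% were higher. Of 11 neutrophil and monocyte markers, 9 were tested, 8 were lower and 1 did not pass, and their summed level was 7223 to 7276 FPKM in control and 3736 to 3792 FPKM in cKO libraries. Erythroid markers summed to 410 to 415 and 740 to 765 FPKM, with 7 of 7 tested genes higher. Megakaryocyte markers summed to 56.2 to 59.9 and 124 to 129 FPKM, with 3 of 3 higher and *Gp1bb* at 0 in every library. Mast cell and basophil markers summed to 89.8 to 102 and 147 to 157 FPKM, with 4 of 5 higher. B and plasma cell markers summed to 63.3 to 69.1 and 94.6 to 101 FPKM, with 1 lower and 2 higher of 4 tested. T and NK cell markers summed to 355 to 366 and 296 to 302 FPKM, a fall that came from *Nkg7* (353 to 279.6 FPKM). *Gzmb* rose from 5.04 to 15.9 FPKM, and the untested *Cd3d* (0.141 to 1.45 FPKM), *Cd3g* (0.0495 to 0.654), *Cd3e* (0 to 0.234), *Klrb1c* (0.354 to 1.01) and *Ncr1* (0.458 to 0.830) had higher means in cKO LSKs. Of 6 stromal and endothelial markers only *Pecam1* was tested and it was lower (19.6 to 12.4 FPKM), while the summed level of the list was 19.5 to 20.3 and 12.4 to 13.3 FPKM. LSK markers summed to 222 to 226 and 233 to 243 FPKM, and of the 9 tested 1 was lower and 4 were higher. The part of these cell types in the lower levels of the early response genes was not tested. In bulk libraries fewer cells of a type and less RNA per cell cannot be told apart.

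The genes whose levels followed the members most closely were sought among 7163 other genes that averaged 5 FPKM or more, by Pearson's r with the mean profile of the members over the 6 libraries. This measure rests mostly on the difference between the groups, and 239 genes had r above 0.99. The 5 closest were *Serinc3*, a membrane protein gene (410 to 183 FPKM), *Hexa*, a lysosomal hexosaminidase subunit (133 to 70.9 FPKM), *Prkcd*, protein kinase C delta (26.8 to 20.51 FPKM), *Lta4h*, an enzyme of leukotriene synthesis (82.7 to 50.9 FPKM), and *Pik3cd*, a phosphoinositide 3-kinase subunit (29.95 to 19.3 FPKM). Their log2 fold changes were -1.16, -0.90, -0.37, -0.69 and -0.61.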

How the data were processed

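RNA-seq of LSKs was analysed, with 3 CTRL and 3 cKO libraries. The authors deposited gene lengths and FPKM values per gene for all libraries together; the submitters' processing notes name HISAT2 2.0.5 and mm10, and the counting program is not given in the sources used here. Multiplied by length, 100% of values came out as whole reads on a common step per library (tolerance 0.05 reads), which gave reads per gene. Without molecular identifiers, intervals made from them leave out every error but counting.

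The 11552 genes averaging 1 FPKM or more were fitted on log2(FPKM + 1) by limma 3.58.1 in R 4.3.3 (lmFit, then eBayes with trend). All p-values are two-sided. Adjusted p of single genes come from limma, with Benjamini-Hochberg correction over the genes of the fit (11552, or 18035 for voom with at least 10 reads, or every gene with reads where no filter was used). The p of family pairs is an exact permutation p, corrected over 6 pairs. The model was tested on simulated data. Fold changes on this scale understate those of low genes. Single values were compared by exact permutation (scipy 1.17.1). Other software was Python 3.11.15, numpy 2.4.6, pandas 2.3.3 and matplotlib 3.10.9.

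The members, lists and tests were chosen with earlier results of these data known. Named were the 10 members, *Myh9*, from each list up to 3 called genes with the largest fall and 3 with the largest rise, and the 5 genes most like the members; *Kit*, *Ly6a*, *Gzmb*, *Nkg7*, *Cd3d*, *Cd3g*, *Cd3e*, *Klrb1c*, *Ncr1* and *Pecam1* were named after their values were seen. Alternatives were a pseudocount of 0.1, no filter, a mean of at least 5 FPKM, median of ratios, quantile and TPM scaling, other moderation, a replicate block, voom on recovered reads, removal of length and GC trends, each library left out, and the rule of more than 2-fold with an unadjusted p under 0.05; voom with at least 10 reads was chosen after seeing the data. Samples with the same replicate number did not deviate together. With 3 libraries per group this cannot show whether numbers pair samples, and the labels do not say. Promoter windows are from RefSeq (GRCm38.p6).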

Additional observations from a re-analysis of the deposited data

How the results depend on the processing

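The count of 6 lower members became 3 under the rule of more than 2-fold, which called 81 genes lower and 165 higher over all genes, and 10 lower and 1 higher of the other early response genes; it was 5 to 6 with each library left out. The median of the members, -0.73, was -0.64 with no filter, -1.02 with a mean of at least 5 FPKM, -0.77 with quantile normalization, -0.81 with length trends and -0.83 with GC and length trends removed, and -1.18 by voom with at least 10 reads. Which members enter differs with the filter. The median of the other early response genes, -0.72, was -0.78 with a pseudocount of 0.1, -0.68 with no filter, -0.69 with a mean of at least 5 FPKM, -0.74 with TPM scaling, -0.76 by voom and by voom with at least 10 reads, -0.71 with length trends removed and -0.70 with GC and length trends removed, and ran from -0.74 to -0.69 with each library left out. The medians of 2 lists near 0 reversed: 0.0033 for relatives and partners without cKO replicate 1 (-0.090 to 0.0033 with each library left out), and 0.020 for heat shock chaperones with a mean of at least 5 FPKM. With a pseudocount of 0.1, *Egr1* minus *Egr3* became 1.46 and *Nr4a2* minus *Nr4a3* became 0.14; these pairs hold genes under 1 FPKM. The cause of the other moves was not tested.

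With a replicate block, 6 members stayed lower, and 2044 genes were lower and 2063 higher over all genes, against 2378 and 2295. Deviations of samples with the same number were correlated at -0.0046, -0.011 and -0.026. Depth limits *Nr4a3*, at 2 to 12 reads, and *Egr3* in cKO LSKs.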

Other observations

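Heat shock chaperones, which like early response genes are induced within minutes by stress, were split. Of 12 genes 11 were tested, 4 were lower, 3 were higher and 4 did not pass, with a median log2 fold change of -0.10. In the whole set of genes tested 20.6% were lower and 19.9% were higher. The inducible HSP70 genes *Hspa1b* (7.73 to 0.656 FPKM, log2 fold change -2.40) and *Hspa1a* (-1.11), whose near-identical sequences make their separate values uncertain, were lower, as was the co-chaperone *Dnajb1* (-0.42). The mitochondrial chaperonins *Hspe1* (0.30) and *Hspd1* (0.23) and the co-chaperone *Dnaja1* (0.21) were higher in *Myh9*-deficient LSKs.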
